A study of Mus musculus with 19 samples.

Results

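The 5 genes described here, Nodal, Gdf3, Tdgf1, Lefty1 and Lefty2, encode secreted or surface proteins of the Nodal pathway. They were taken by name from the deposited expression matrix of mouse stem cells, and all 5 were among its 12778 genes. They were chosen by their measured levels in cells that lack both the miR-290 and the miR-302 microRNA cluster, where Gdf3 was high and Lefty1 and Lefty2 were low. Levels in those cells against the other cells are therefore given as a description, with no test.

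Nodal is a ligand of the transforming growth factor beta family that binds activin receptors and acts through the proteins Smad2, Smad3 and Smad4. Tdgf1, also called Cripto, is the surface co-receptor that Nodal and Gdf3 need, and Gdf3 is a related ligand that is made by pluripotent cells. Lefty1 and Lefty2 are secreted antagonists that are switched on by Nodal signalling and close a negative feedback loop. In the embryo the pathway patterns the body axes and the germ layers, and in cultured pluripotent cells it acts in an autocrine way.

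RNA was read at the 3' end of transcripts with the QuantSeq kit in 19 libraries. Induced pluripotent stem cells (iPSC), made from mouse embryonic fibroblasts with Oct4, Sox2 and Klf4 and collected more than 18 passages later, were wild type (WT, 3 libraries), miR-290 knockout (KO), miR-302 KO, or KO for both clusters (double KO). Each iPSC KO group held 2 colonies with 2 libraries per colony. Embryonic stem cells (ESC) were miR-290 KO or miR-302 KO, with 2 libraries each. All cells were grown with LIF and fetal bovine serum, and ages and strains are not given in the sources used here. Per the series description each replicate was derived on its own except in the WT iPSC. A property of the WT derivation may thus enter every comparison with WT, and p-values then measure only the spread between these libraries. WT ESC were not analysed here, and the deleted microRNAs themselves are not in the matrix.

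The libraries held between 6435997 and 24974510 recovered reads. Levels are in CPM, the reads of a gene scaled to a common library total. A mean ± SD is over colonies in the KO iPSC (n = 2) and over libraries in WT iPSC (n = 3) and in each ESC group (n = 2). Where libraries of 2 groups did not overlap, this is a description, and the share of all genes that did so was not counted. The 4 libraries of a KO iPSC group come from 2 colonies. Library 2 of miR-302 KO iPSC colony 1 stood apart. Its log2 values differed from those of library 1 of the same colony with an SD of 1.71 across genes, against 0.56 to 1.06 for the other pairs of libraries within a colony or group. The double KO cells had low levels of most pluripotency markers. Summed over 10 such genes, Tdgf1 among them, the level was 202 to 319 CPM in the 4 double KO libraries and 2973 to 4700 CPM in the other 15. In the double KO Utf1 had 7 reads in all, Zfp42 30 and Esrrb 34, while Fgf4 kept 123 to 213 CPM. Of the markers of other cell types, 5 of 12 fibroblast genes could be read. They summed to 7.88 to 47.9 CPM in double KO libraries and to 7.39 to 9.24 CPM in WT. Fbln2 had 3.77 to 40.6 CPM in the double KO against 0.427 to 1.03 CPM in WT, and Twist1 1.88 to 8.57 against 0.345 to 1.12 CPM. The other genes went the other way or overlapped: Thy1 0 to 0.587 against 2.08 to 5.22 CPM, Pdgfrb 0 to 0.281 against 0.706 to 2.21 CPM, Col1a1 0 to 0.976 against 0.163 to 3.42 CPM. For primitive endoderm 5 of 10 genes summed to 2231 to 4794 CPM, against 465 to 628 CPM in WT. Sparc alone made up nearly all of that sum. Foxq1 had 16.4 to 28.6 CPM in the double KO against 0 to 1.39 CPM in WT. Dab2 had 0.225 to 2.58 against 2.66 to 5.31 CPM, and Lama1 0.45 to 1.88 against 2.24 to 6.63 CPM. Gata4 had 0 reads in the double KO, which allows up to 0.046 CPM. For trophoblast 7 of 9 genes summed to 13.9 to 67.2 CPM, against 77.5 to 172 CPM in WT. The part of these marker levels in the results below was not tested. In bulk RNA, fewer cells of a type and less RNA per cell cannot be told apart.

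The sequences of the deleted microRNAs are shown because several members of both clusters share a seed, the stretch from base 2 to base 8 that pairs with target transcripts. Of 22 mature microRNAs of both clusters read from RefSeq (GRCm38.p6), 5 had the same seed, in capitals below. The first 2 come from the miR-302 cluster on chromosome 3 and the other 3 from the miR-290 cluster on chromosome 7. The mature forms miR-302a-3p and miR-292a-3p are named only.
mmu-miR-302b-3p: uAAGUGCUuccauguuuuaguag
mmu-miR-302d-3p: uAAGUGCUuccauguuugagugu
mmu-miR-291a-3p: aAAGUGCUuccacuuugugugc
mmu-miR-294-3p: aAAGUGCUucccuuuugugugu
mmu-miR-295-3p: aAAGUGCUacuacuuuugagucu

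Lefty1 and Lefty2 each carried 1 match to this seed in the 3' untranslated region (UTR), and in each the match was followed by an A. For every gene the coding transcript with the longest 3' UTR in the GENCODE basic set (mm10) was searched. The match searched was AGCACTT, on the transcript strand only, and in the sites below it and the following A are in capitals.
Lefty1, chr1:180938202-180938231, plus strand: actgtatgcgaAGCACTTAcatgtatagat
Lefty2, chr1:180897906-180897935, plus strand: cacccagtttaAGCACTTAcatgggtaaat
The match began 238 bases after the stop codon in Lefty1 and 104 bases after it in Lefty2. Of 11869 genes of the matrix with a 3' UTR, 17.3% held the 7-base match and 3.56% held it with the following A. No 7-base match was found in the 3' UTR of Gdf3, Tdgf1 or Nodal. These matches describe letters in a window and not measured binding.

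Of the ligands, Nodal was far lower in the double KO than in any other group. It lies on chromosome 10 (61417972 to 61425338, plus strand, mm10). Nodal had 126, 119 and 107 CPM in WT iPSC libraries 1, 2 and 3. It had 92.9, 83.9, 68.0 and 65.6 CPM in the miR-290 KO iPSC libraries, here and below in the order of colony 1 library 1, colony 1 library 2, colony 2 library 1 and colony 2 library 2. All 4 miR-290 KO iPSC libraries, from 2 colonies, lay below all 3 WT libraries. In miR-302 KO iPSC the levels were 83.3, 98.7, 87.3 and 113 CPM, which overlap both of these groups. The ESC libraries had 83.7 and 101 CPM without miR-290 and 98.3 and 92.6 CPM without miR-302, all below the WT iPSC libraries. In the double KO Nodal had 1.06, 2.37, 2.93 and 7.51 CPM, from 17 to 128 reads. Every double KO library was thus below every other library. The log2 difference between double KO and WT was −5.30 (SE 0.33), that is, 39.4-fold lower.

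Gdf3 was the member that was high where the others were low. It lies on chromosome 6 (122605403 to 122610087, minus strand). Gdf3 had 163, 131 and 129 CPM in WT iPSC and 489, 547, 364 and 437 CPM in the double KO. The double KO libraries were above all other libraries, with a mean of 459 ± 83.2 CPM against 141 ± 18.7 CPM in WT. The log2 difference was 1.74 (SE 0.21), or 3.34-fold. With median-of-ratios scaling, which sets library size by the median gene ratio, it was 1.53. In miR-290 KO iPSC Gdf3 had 216, 184, 352 and 253 CPM, between the WT and the double KO levels with no overlap with either. In miR-302 KO iPSC it had 125, 121, 136 and 123 CPM, which overlap WT. The ESC had 190 and 166 CPM without miR-290 and 159 and 162 CPM without miR-302, a narrow range. The double KO exceeded miR-290 KO iPSC by 0.93 (SE 0.23) and miR-302 KO iPSC by 1.88 (SE 0.23) on the log2 scale. These values share the double KO libraries with the comparison to WT.

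The co-receptor Tdgf1 varied among colonies and libraries within the single KO groups. It lies on chromosome 9 (110939603 to 110946158, minus strand). Tdgf1 had 423, 445 and 409 CPM in WT iPSC, and 498, 537, 211 and 453 CPM in miR-290 KO iPSC. In miR-302 KO iPSC it had 386, 136, 393 and 475 CPM. The low value of 136 CPM came from the library that stood apart above, and the other low value, 211 CPM, from colony 2 library 1 of miR-290 KO. The ESC libraries had 375 and 416 CPM without miR-290 and 529 and 379 CPM without miR-302. In the double KO Tdgf1 had 2.11 and 4.11 CPM in colony 1 and 14.1 and 12.2 CPM in colony 2, below all other libraries. The log2 difference to WT was −6.01 (SE 0.47). Without colony 1 of the double KO it was −4.96 and without colony 2 it was −7.06.

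**Figure D1:**
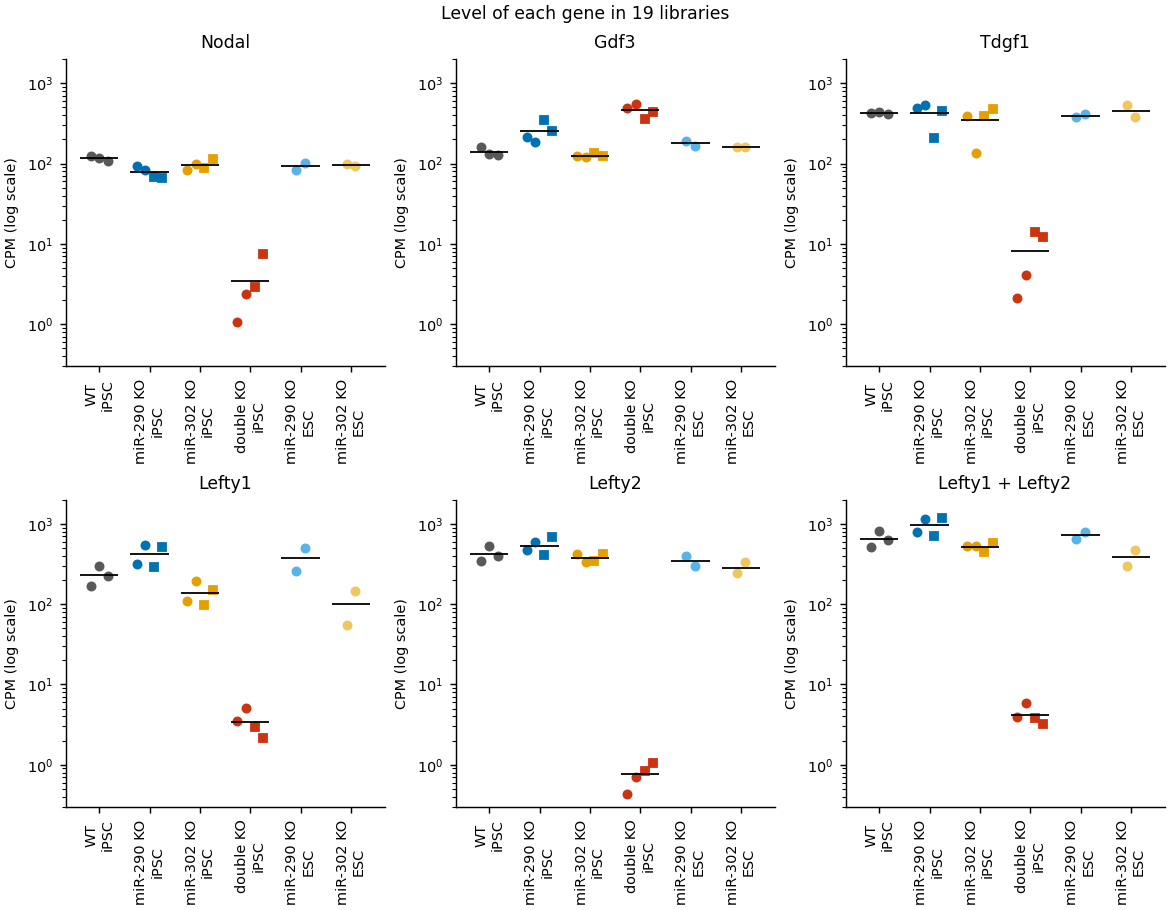
Level of each gene in CPM (log axis) in each of the 19 libraries, by group, with the sum of Lefty1 and Lefty2 in the last panel. Circles are colony 1 or libraries without a colony, squares are colony 2, and lines are means over samples. Double KO libraries lie below all others in Nodal, Tdgf1, Lefty1 and Lefty2 and above all others in Gdf3.

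The antagonists Lefty1 and Lefty2 are neighbouring copies on chromosome 1, and their reads could not be fully told apart. Lefty2 (180893108 to 180899103) and Lefty1 (180935022 to 180938400) lie on the plus strand with starts 41.9 kb apart. With the best constant, the deposited values of Lefty1 were whole reads in 9 of 19 libraries and those of Lefty2 in 8, within 0.05 of a read. Their sum was whole in 19 of 19 libraries. The deposited values thus split shared reads between these genes in fractions. The level of each gene is an estimate, and the summed level does not depend on the split.

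Lefty1 had 166, 296 and 227 CPM in WT iPSC. It was high without miR-290, at 316, 553, 292 and 514 CPM in iPSC and 259 and 498 CPM in ESC. It was low without miR-302, at 111, 195, 97.9 and 152 CPM in iPSC and 54.5 and 144 CPM in ESC. The libraries of miR-290 KO and miR-302 KO did not overlap in either cell type, and WT libraries overlapped both iPSC groups. The double KO had 3.48, 5.16, 2.98 and 2.17 CPM, a log2 difference of −5.99 (SE 0.40) to WT.

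Lefty2 varied less between the single KO groups. It had 344, 525 and 397 CPM in WT, 474, 591, 404 and 677 CPM in miR-290 KO iPSC and 426, 333, 342 and 425 CPM in miR-302 KO iPSC. The ESC had 394 and 301 CPM without miR-290 and 241 and 332 CPM without miR-302. Both iPSC KO groups overlapped WT. The double KO had 0.435, 0.697, 0.844 and 1.06 CPM, from about 7 to 18 reads per library, which made Lefty2 the member with the largest log2 difference to WT among the 5 (−8.86, SE 0.24, or 465-fold lower). Because the deposited values carry a small prior, such a fold understates the change of a gene with few reads.

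Summed over Lefty1 and Lefty2, the level was 651 ± 157 CPM in WT iPSC, 955 ± 16.4 CPM in miR-290 KO iPSC, 521 ± 17.1 CPM in miR-302 KO iPSC and 4.21 ± 0.959 CPM in the double KO. In ESC it was 726 ± 103 CPM without miR-290 and 385 ± 128 CPM without miR-302. The share of these reads that was assigned to Lefty1 was 35.0% ± 2.12 in WT (SD, n = 3), 43.4% ± 1.13 in miR-290 KO iPSC and 26.6% ± 3.20 in miR-302 KO iPSC (SD, n = 2 each). In ESC it was 51.0% ± 16.1 without miR-290 and 24.4% ± 8.35 without miR-302. Single libraries ran from 39.6% to 62.4% over both miR-290 KO groups and from 18.5% to 37.0% over both miR-302 KO groups, with WT between 32.6% and 36.4%. The miR-302 KO iPSC library at 37.0% was the one that stood apart. In the double KO the share was 67.3% to 88.9%, on 55 to 84 Lefty reads per library. These shares compare groups and are not a ratio of transcripts, since reads were split between the copies.

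**Figure D2:**
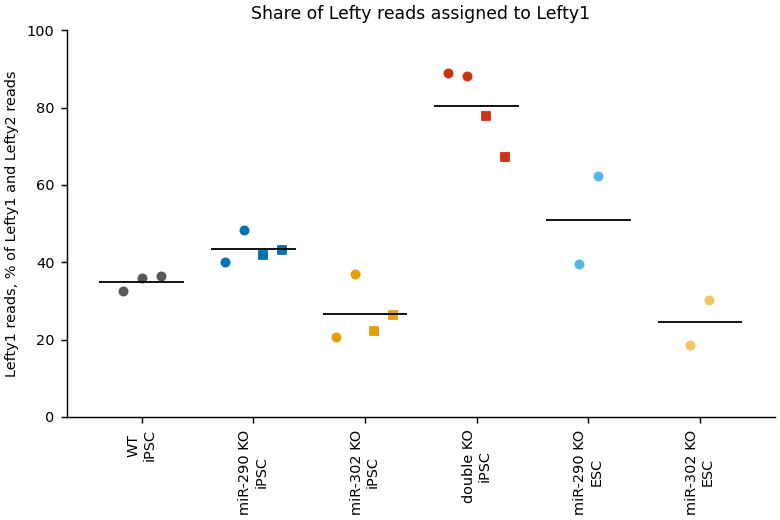
Reads assigned to Lefty1 as a percent of all Lefty1 and Lefty2 reads in each library, by group. Circles are colony 1 or libraries without a colony, squares are colony 2, and lines are means over samples. The miR-290 KO libraries lie between 39.6% and 62.4%, the miR-302 KO libraries between 18.5% and 37.0%, and the double KO libraries above all of these.

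The order of the group means differed by gene. Neighbours in that order whose libraries overlapped were not separated. For Nodal, Tdgf1, Lefty1, Lefty2 and the Lefty sum, the only step in the order at which libraries did not overlap was the last one, down to the double KO. For Gdf3 the libraries did not overlap between the double KO and miR-290 KO iPSC, the 2 highest groups, nor between miR-290 KO ESC and miR-302 KO ESC. The members were chosen by their double KO levels, so the steps at the double KO are a description. The share of all genes with such a step was not counted, and 49.0% of all genes were called between double KO and WT.

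The single KO groups were then compared by test, which asks what the loss of 1 cluster alone changed. The tests used limma on the deposited log2 values of 13 samples, with p-values adjusted by Benjamini-Hochberg over all 12778 genes. None of the 5 genes passed an adjusted p of 0.05 in the 6 comparisons.

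Between miR-290 KO and WT iPSC, 0 of 5 members were called, while 1.57% of all genes were. At an unadjusted p under 0.05 there was 1 member, Gdf3, against 16.7% of all genes. Gdf3 was higher without miR-290 by 0.80 on the log2 scale (SE 0.21, limma adjusted p 0.0754), in 4 of 4 libraries of 2 colonies. How many of all genes separate so was not counted. With each library taken as a sample the adjusted p of Gdf3 was 0.0337, but that fit counts the 2 libraries of a colony as separate replicates. Without colony 2 of miR-290 KO the difference of Gdf3 was 0.51. With all samples and median-of-ratios scaling it was 0.67 (limma adjusted p 0.164), and the median of all genes moved from 0.14 to 0.005. Lefty1 differed by 0.86 (SE 0.40, adjusted p 0.303) and Nodal by −0.60 (SE 0.33, adjusted p 0.390). Lefty2 differed by 0.35 (SE 0.24) and Tdgf1 by −0.08 (SE 0.47). The Lefty sum differed by 0.54 (SE 0.24, adjusted p 0.288).

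Between miR-302 KO and WT iPSC, 0 of 5 members were called, against 0.0313% of all genes, and 0 had an unadjusted p under 0.05, against 15.1% of all genes. The largest difference in size was that of Lefty1, −0.73 (SE 0.40, limma adjusted p 0.390). Tdgf1 differed by −0.43 (SE 0.47), a value that was 0.03 without colony 1. Nodal, Gdf3 and Lefty2 differed by −0.29 (SE 0.33), −0.15 (SE 0.21) and −0.13 (SE 0.24).

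Between the single KO iPSC groups, Lefty1 and Gdf3 were the members that came closest to a call. The count was 0 of 5 called, against 2.25% of all genes, and 2 of 5 at an unadjusted p under 0.05, against 18.5%. The median log2 difference over all genes was 0.23, with 237 genes called higher and 50 lower. With median-of-ratios scaling that median was 0.048, with 153 genes higher and 83 lower, and 0 members were called. Lefty1 was higher in miR-290 KO than in miR-302 KO by 1.59 (SE 0.44, limma adjusted p 0.0754), and Gdf3 by 0.95 (SE 0.23, adjusted p 0.0520). All 4 libraries without miR-290, from 2 colonies, were above all 4 without miR-302, also from 2 colonies, in each of these genes. The share of all genes that separate in this way was not counted. Without the library that stood apart both genes passed, Lefty1 at 1.79 (adjusted p 0.0498) and Gdf3 at 0.94 (adjusted p 0.0437). The adjusted p of Lefty1 ran from 0.00211 to 0.291 over 24 alternatives, with 6 calls, and that of Gdf3 from 0.00434 to 0.264, also with 6. Without miR-302 KO ESC library 1 or 2, Lefty1 passed at adjusted p 0.0382 and 0.0388, and without colony 2 of miR-302 KO iPSC, Gdf3 passed at 0.0489. The Lefty sum differed by 0.84 (SE 0.27, adjusted p 0.117). Lefty2 differed by 0.48 (SE 0.27), Tdgf1 by 0.35 (SE 0.51) and Nodal by −0.30 (SE 0.36), and Tdgf1 differed by −0.03 without the library that stood apart.

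In ESC, 0 of 5 members were called between miR-290 KO and miR-302 KO, against 0.587% of all genes, and 1 had an unadjusted p under 0.05, against 12.8%. That gene was Lefty1, higher without miR-290 by 2.01 (SE 0.44, limma adjusted p 0.0647), or 4.03-fold. Its 2 libraries without miR-290 lay above the 2 without miR-302, and the share of all genes that separate so was not counted. Without miR-302 KO ESC library 2 the difference was 2.71 (adjusted p 0.0386), and without library 1 of that group it was 1.30 and was not called. Over 24 alternatives the adjusted p ran from 0.0386 to 0.549, with 2 calls, the other being on the log2(CPM + 1) scale (0.0390). The Lefty sum differed by 0.95 (SE 0.27, adjusted p 0.157). Gdf3, Lefty2, Nodal and Tdgf1 differed by 0.13 (SE 0.23), 0.28 (SE 0.27), −0.06 (SE 0.36) and −0.19 (SE 0.51).

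Whether the difference between the single KO groups itself differed between iPSC and ESC was tested as an interaction. It was called in 0 of 5 members and 0% of all genes, and 1 member had an unadjusted p under 0.05, against 4.32% of all genes. That gene was Gdf3, whose difference was larger in iPSC by 0.82 (SE 0.32, limma adjusted p 0.984). For Lefty1 the interaction was −0.42 (SE 0.62).

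Between iPSC and ESC of the same genotype, 0 of 5 members and 0% of all genes were called for either cluster. Without miR-290, 1 member had an unadjusted p under 0.05, against 3.85% of all genes. It was Lefty2, higher in iPSC by 0.62 (SE 0.27, limma adjusted p 0.999), in 4 of 4 libraries. The share of all genes with such a separation was not counted. Without miR-302 no member did, against 10.5% of all genes, and the differences ran from −0.51 (SE 0.51) for Tdgf1 to 0.59 (SE 0.44) for Lefty1.

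**Figure D3:**
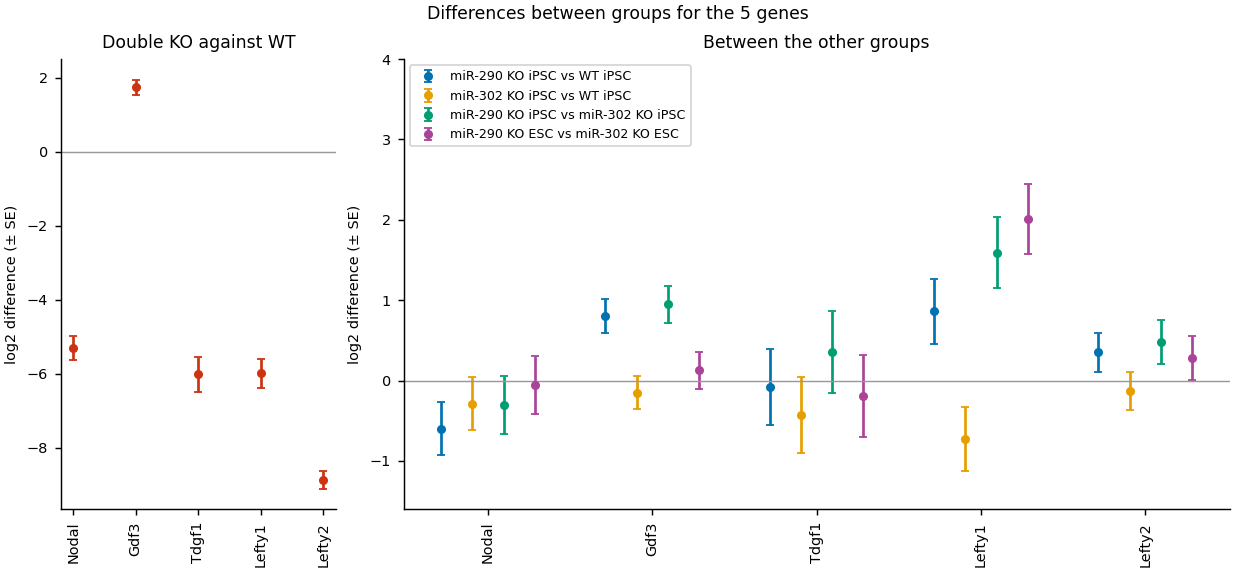
Log2 difference between groups (± SE, from the fit to 13 samples) for each gene, with double KO against WT on the left and 4 other comparisons on the right, on separate axes. Between the groups on the right, Lefty1 differs most, by 2.01 in ESC and 1.59 in iPSC between miR-290 KO and miR-302 KO.

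The authors' deposited table of double KO against WT lists all 5 genes, with log2 fold changes of −9.37 for Lefty2, −6.32 for Lefty1, −5.97 for Tdgf1, −5.34 for Nodal and 1.44 for Gdf3. The authors' deposited table of miR-290 KO against WT lists Nodal alone of the 5, at −0.74 (SE 0.21, adjusted p 0.0084). In the limma fit that difference was −0.60 with an adjusted p of 0.390. These tables hold 8672 and 1429 genes and list no gene with an adjusted p above 0.05. The authors' deposited table of miR-302 KO against WT holds 43 genes and none of the 5.

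The rest of the pathway was followed in a list of 51 further genes in 5 roles, 42 of which were in the matrix. In the double KO against WT, 10 of 42 rose and 13 fell, with a median log2 difference of 0.10 against 0.16 over all genes. Of all genes 49.0% were called, 27.4% higher and 21.5% lower. Median-of-ratios scaling moved the median of all genes to −0.05, with 2898 genes higher and 3409 lower in place of 3502 and 2753, and gave 8 pathway genes higher and 14 lower. Of 12 listed transcriptional targets 8 were in the matrix. Those with few or no reads in the double KO are in it through groups where they are higher, so the targets are given gene by gene. In all 23 of 42 genes passed, a share close to that of all genes.

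Among ligands and processing enzymes, 1 of 6 rose and 2 fell. Furin, a protease that cleaves ligand precursors, rose by 1.54 on the log2 scale (SE 0.27, limma adjusted p 0.000481), from 19.5 ± 3.34 CPM in WT to 55.1 ± 1.05 CPM. Pcsk6, another such protease, fell by 4.59 (SE 0.99, adjusted p 0.0022), from 111 ± 29.0 CPM to 13.5 ± 18.3 CPM, with a wide spread between the colonies. Of the receptors, the type II receptor Acvr2a rose by 2.26 (SE 0.51) and Acvr2b fell by 0.91 (SE 0.34, adjusted p 0.0445). Acvr1b, a type I receptor, differed by 0.02 (SE 0.94) and was near 0.6 CPM in both groups, where a difference was hardly detectable.

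Of 7 mediators in the matrix, 2 rose and 1 fell. Smad3 rose by 1.63 (SE 0.38, limma adjusted p 0.0039) and Wwtr1, the coactivator also called Taz, by 2.25 (SE 0.23, adjusted p 7.37e-06). Trim33, a chromatin-binding partner of Smad proteins, fell by 0.64 (SE 0.23, adjusted p 0.0358). Smad2 differed by 0.46 (SE 0.24), Smad4, the shared Smad, by 0.65 (SE 0.27), the ubiquitin ligase Rnf111 by 0.14 (SE 0.23) and the Smad anchor Zfyve9 by −0.46 (SE 0.89), and none of these passed. The transcripts of Smad2 and Smad4 were thus present in the double KO, at 45.4 ± 5.45 and 74.3 ± 2.00 CPM.

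Of 18 inhibitors other than the Lefty genes, 5 rose and 3 fell. Bambi, a receptor decoy, rose by 1.80 (SE 0.52), the Smad corepressor Skil by 1.38 (SE 0.25), the membrane protein Pmepa1, which holds Smad2 and Smad3, by 1.40 (SE 0.23) and the ubiquitin ligase Smurf1 by 1.34 (SE 0.38). The 3 that fell, named here after their values were seen, were the corepressor Tgif1 (−2.19, SE 0.37), the inhibitory Smad7 (−0.86, SE 0.27) and Dact2 (−0.83, SE 0.22).

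The targets that were lower are transcription factors of early embryonic tissues, and most were weakly expressed in WT. Otx2, a factor of the early head region, had 333 reads in the WT group and 4 in the double KO, and T, also called Brachyury and a factor of the primitive streak, 305 and 4 (log2 differences of −4.90, SE 0.53, and −4.88, SE 0.85). Gsc had 148 reads in WT and 0 in the double KO, which allows up to 0.046 CPM, and Mixl1 65 and 3. Wnt3, a ligand of the primitive streak, was the target that was higher (2.09, SE 0.78, limma adjusted p 0.0419), with 13.2 ± 13.8 CPM against 2.16 ± 0.998 CPM. Eomes was at 12.3 ± 4.81 CPM in double KO cells and at 12.2 ± 1.42 CPM in WT.

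Some of these calls were lost in other settings. Without colony 1 of the double KO, Acvr2b, Bambi, Smad3, Smurf1, Smad7 and Trim33 were not called, and without colony 2 Acvr2b, Trim33 and Wnt3 were not. Without WT library 3 Acvr2b, Smad7, Trim33 and Wnt3, and without WT library 1 Trim33 and Wnt3, were not called, and Wnt3 and Acvr2b also lost the call when either colony of miR-290 KO iPSC or either library of miR-290 KO ESC was left out. Wnt3 was also not called with median-of-ratios scaling (adjusted p 0.0628) or with only the compared groups in the fit, and Acvr2b not in the latter, without a trend in the spread or with sample weights. Trim33 was not called without the trend, and neither it nor Acvr2b without library 2 of miR-290 KO iPSC colony 2. Bambi was not called with each library as a sample, with or without colony as a random effect. With each library as a sample and the replicate number as a block, Acvr2b, Bambi, Smad7, Trim33 and Wnt3 were not called. Over 24 alternatives the log2 difference stayed positive for Wnt3 (0.73 to 3.45) and Bambi (0.99 to 2.60) and negative for Acvr2b (−1.17 to −0.54) and Trim33 (−0.84 to −0.47). None of the 42 genes was called in miR-290 KO or in miR-302 KO against WT iPSC, where 1.57% and 0.0313% of all genes were called. At an unadjusted p under 0.05 there were 1 and 5 of 42, against 16.7% and 15.1% of all genes. Without colony 2 of miR-302 KO iPSC, Bambi, Tgif1 and Tgif2 were called in the latter.

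**Figure D4:**
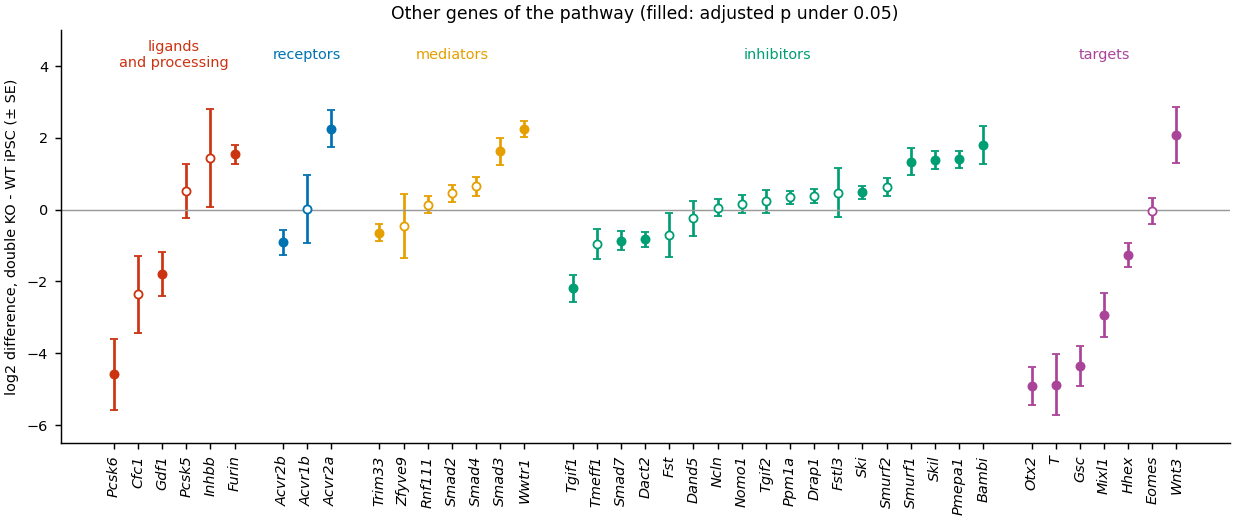
Log2 difference between double KO and WT iPSC (± SE) for 41 other genes of the pathway, by role. Filled points passed an adjusted p of 0.05 (10 higher and 12 lower), and open points did not. Every role holds genes on both sides of 0.

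Genes that lie next to the 5 members were compared in the double KO to place each member in its neighbourhood. Distances are between the left ends of genes on the chromosome, whatever the strand, and are not gaps between genes. Of the 25 nearest matrix genes, 3 on each side of each member, 9 rose and 8 fell, against 27.4% and 21.5% of all genes. Of those that fell, Dppa3, Lrrc2, Prss42 and Prss50 had few or no reads in the double KO. They can have entered the matrix through groups where they are higher. Their falls are thus a description, and the count of falls includes them. Without either colony of the double KO 5 rose, and with median-of-ratios scaling 6 rose and 11 fell.

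The called genes around Gdf3 differed in sign. Apobec1, an RNA-editing enzyme on the minus strand (122577792 to 122602444), has its left end 27.6 kb to the left of that of Gdf3. Apobec1 rose by 3.84 (SE 0.70, limma adjusted p 0.000694), and Mfap5, a microfibril protein, by 2.89 (SE 0.59). Dppa3, also called Stella, has its left end 21.0 kb to the right and fell by 7.58 (SE 0.60), from 44.9 ± 28.1 CPM to 0.0816 ± 0.0324 CPM. Nanog, the pluripotency factor 102.1 kb to the right, fell by 8.10 (SE 0.27, adjusted p 2.5e-10), from 689 ± 33.8 CPM to 2.34 ± 0.426 CPM. Rimklb, the farthest of the 3 on the left, fell by 5.11 (SE 0.44). The glucose transporter Slc2a3 differed by −0.36 (SE 0.33) and did not pass.

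Around the Lefty genes, Tmem63a rose by 2.00 (SE 0.32), and Ephx1, an epoxide hydrolase 41.2 kb to the right of Lefty1, rose by 6.19 (SE 0.55, limma adjusted p 2.28e-06), from 6.78 ± 1.39 CPM to 543 ± 338 CPM. Acbd3 rose by 0.68 (SE 0.24). H3f3a, Sde2 and Nvl differed by −0.10 (SE 0.21), −0.36 (SE 0.19) and −0.61 (SE 0.24) and did not pass.

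Next to Tdgf1, Lrrc2 fell by 4.85 (SE 0.32), from 19.7 ± 6.19 CPM to 0.543 ± 0.172 CPM. The serine protease genes Prss50 (−4.25, SE 0.51) and Prss42, which had 0 reads in the double KO, also fell, the latter not called with the replicate block. Als2cl rose by 2.19 (SE 0.50), and Lrrfip2 by 0.63 (SE 0.21). Around Nodal, Lrrc20 rose by 1.78 (SE 0.57) and the pyrophosphatase Ppa1 fell by 1.19 (SE 0.17, limma adjusted p 9.45e-05). Pald1 (−0.45, SE 0.39), Eif4ebp2 (−0.53, SE 0.59) and Sgpl1 (−0.10, SE 0.20) did not pass. The small rises of Acbd3 and Lrrfip2 did not pass with median-of-ratios scaling. Acbd3 also did not pass without a trend in the spread. Acbd3, Lrrfip2 and Lrrc20 also lost the call when either double KO colony was left out, and with WT library 1 or 2 (Acbd3, Lrrfip2) or 3 (Lrrc20) left out.

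**Figure D5:**
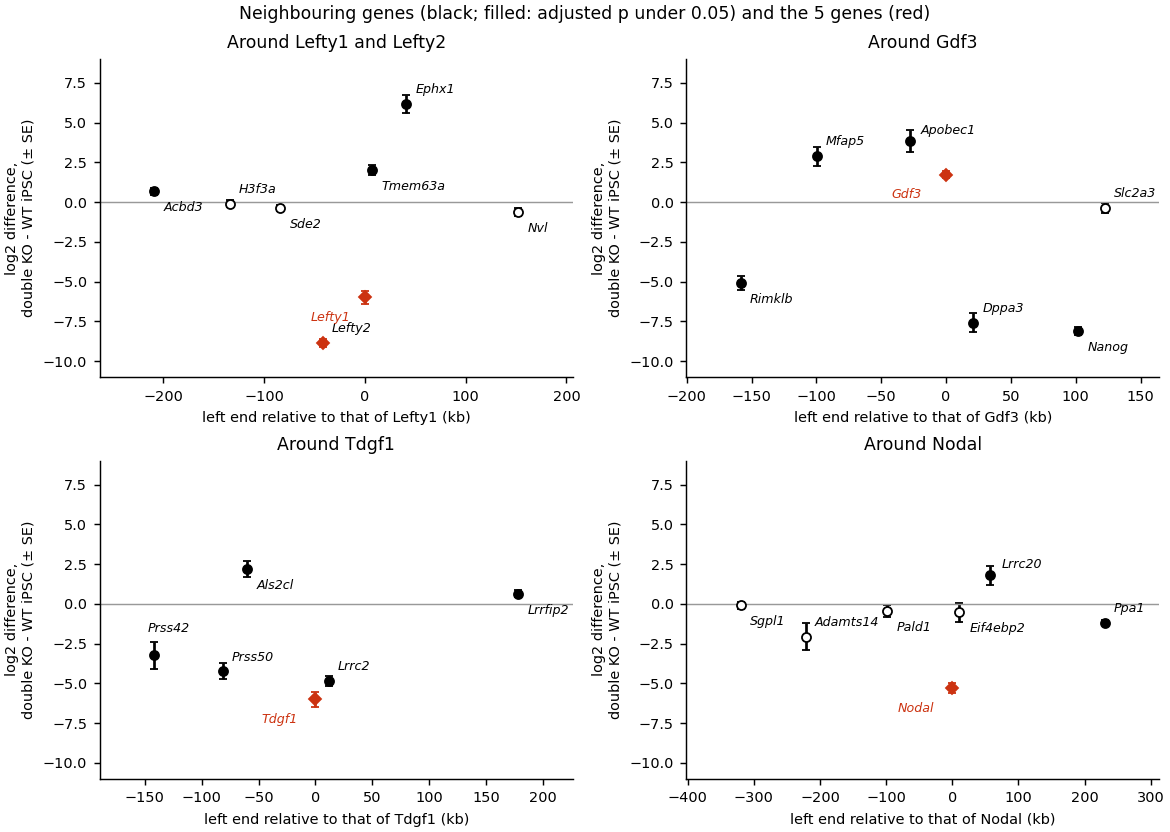
Log2 difference between double KO and WT iPSC (± SE) for the 5 genes (red) and their neighbours in the matrix (black, filled where the adjusted p was under 0.05, 23 shown), by the distance of left ends in kb. Around Gdf3, Apobec1 and Mfap5 are higher while Dppa3 and Nanog are lower, and to the right of Lefty1, Tmem63a and Ephx1 are higher.

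The genes with the most similar profiles were looked up by Pearson correlation of deposited log2 values across samples. Over all 13 samples, which the double KO dominates, the closest to Nodal were Tdrd12, Sox15 and Alpl (r of 0.993, 0.993 and 0.992), and the closest to Tdgf1 were Tdrd12, Tle3 and Mest (0.995, 0.993 and 0.993). For Lefty2 they were Dppa4, Tex14 and Utf1 (0.996, 0.995 and 0.994), for Lefty1 Lin28b, Mbnl3 and Ap3b2 (0.982, 0.980 and 0.976), and for Gdf3 Mafk, Hmgn2 and Dchs1 (0.985, 0.975 and 0.973). Among the members r was 0.89 to 0.99 between Nodal, Tdgf1, Lefty1 and Lefty2, and −0.90 to −0.71 between Gdf3 and each of them. These values describe groups that fall far apart and carry no test.

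Over the 11 samples without the double KO the profiles no longer ran together. Between Lefty1 and Lefty2 r was 0.64, between Nodal and Tdgf1 0.40 and between Nodal and Gdf3 −0.73, while Nodal had −0.25 and −0.30 with Lefty1 and Lefty2. The closest genes were then Cdkn1c, Wnt3 and Stx11 for Lefty1 (0.977, 0.941 and 0.939), Mafk, Dchs1 and Atp6v0a1 for Gdf3 (0.962, 0.957 and 0.953) and Esrra, Chic2 and Armcx1 for Tdgf1 (0.971, 0.970 and 0.968). For Nodal they were Ndufc1, Snhg5 and Tinf2 (0.902, 0.897 and 0.890), and for Lefty2 Dnajc10, Psme1 and Zfp729b (0.855, 0.853 and 0.821). Mafk and Dchs1 stood among the 3 closest to Gdf3 with and without the double KO, and for the other members no gene did. Samples of 1 group share a genotype, and the 2 Lefty genes share reads, so these points are not independent.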

How the data were processed

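Gene expression was measured by QuantSeq 3' sequencing in 19 libraries. Per the labels' protocols, the input was 200 ng of total RNA and the reads were single-end, of 50 bp. The submitters' processing notes name Trim Galore 0.66, STAR, Salmon 1.4.0, limma, DESeq2 1.34.0 and build mm10, with no role or order. The authors' deposited matrix holds log2 values for 12778 genes. From the values, these are log2 CPM with a prior (2.41 reads on average) and a constant per gene. In 12239 genes (95.8%) 1 constant gave whole reads, and 99.7% of their values were whole within 0.02 of a read. Levels in CPM come from these reads. The scale of Lefty1 and Lefty2 was taken from the mean normalized count signal in the authors' deposited table of double KO against WT, which 99.8% of 7510 recovered genes matched within 0.2%. Per the file headers, the authors' tables also hold log2 fold changes, a test score and p-values. In the matrix, 6 columns that match no sample were not used.

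The test was that of limma (version 3.58.1, R 4.3.3; trended spread, all genes) on 13 samples in 6 groups, with the 2 libraries of a colony averaged and 7 residual degrees of freedom. A call is a Benjamini-Hochberg adjusted p under 0.05. The test was also run on simulated data with the same spread for a gene in every group. This does not cover samples of unequal spread, and the sample weights here ran from 0.53 to 2.14. Per the plan, all 5 members were named, with every receptor and mediator of the pathway list, up to 6 higher and 6 lower called genes of its other roles, neighbours that were called or abundant, and the 3 closest profiles. Of the list, Inhba, Acvr1c, Foxh1, Cer1, Inha, Foxa2, Lhx1, Fgf8 and Sox17 were not analysed here. Counts cover every gene of a list, and 3 of these genes are not reported here by name. The members and lists were chosen with earlier results of these data known. Floors are 3 reads over a group and cover counting error only. Alternatives included scaling, pseudocount (1 CPM), filter (1 CPM in 2 samples), each library as a sample, colony as a random effect, a replicate block and leaving out samples. The summed Lefty level was added after seeing the data. Replicate numbers were not taken to pair samples, since the correlation of deviations was not above 0.1 for every pair.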

Additional observations from a re-analysis of the deposited data

How the results depend on the processing

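The count of 0 members called moved in 3 comparisons. For miR-290 KO against WT iPSC it was 1 with each library as a sample, and 1 with colony as a random effect (correlation 0.07). For miR-290 KO against miR-302 KO iPSC it was 1 on the log2(CPM + 1) scale, 2 with each library as a sample, 2 with colony as a random effect, 2 with each library as a sample and the replicate block (Gdf3 at adjusted p 0.00802, Lefty1 at 0.00211), 2 without library 2 of miR-302 KO colony 1, and 0 to 1 with 1 sample left out. In ESC it was 1 on the log2(CPM + 1) scale and 0 to 1 with 1 sample left out. The block fit also takes each library as a sample. Beside the fit with libraries and no block, it called 0 in place of 1 member in miR-290 KO against WT, the same number (2) between the single KO iPSC groups, 9 higher and 9 lower pathway genes in place of 11 and 14, and 8 and 7 neighbours in place of 9 and 10. It gave the Lefty sum an adjusted p of 0.0118 between the single KO iPSC groups. Replicate numbers were not taken to pair samples, although Lefty1 was higher in library 2 in 7 of 7 pairs outside the double KO: across genes the correlation of library 2 minus library 1 between 36 pairs of units ran from −0.59 to 0.50, and 13 were above 0.1. Pathway genes called in miR-302 KO against WT ran from 0 to 3 with 1 sample left out.

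In double KO against WT the log2(CPM + 1) scale gave −4.92 for Nodal and −7.90 for Lefty2. With 1 colony or library left out, Nodal ran from −6.04 to −4.55, Tdgf1 from −7.06 to −4.96 and Lefty2 from −9.19 to −8.54. Differences that were under 0.6 in size changed sign in some settings. With 1 colony or library left out, Tdgf1 ran from −0.45 to 0.28 (miR-290 KO against WT), −0.88 to 0.03 (miR-302 KO against WT), −0.11 to 0.80 (between single KO iPSC, where single values were −0.02 without miR-290 KO colony 1 and −0.11 without miR-302 KO colony 1), −0.43 to 0.04 (ESC) and −0.34 to 0.39 (miR-290 KO iPSC against ESC, −0.05 without ESC library 1). Lefty2 ran from −0.26 to 0.04 (miR-302 KO against WT), Lefty1 from −0.30 to 0.64 (miR-290 KO iPSC against ESC) and −0.11 to 1.30 (miR-302 KO iPSC against ESC), and Nodal from −0.20 to 0.08 (ESC) and −0.08 to 0.05 (miR-302 KO iPSC against ESC, 0.03 without ESC library 1). Without library 2 of miR-302 KO colony 1, Tdgf1 was −0.03 between single KO iPSC. Without library 2 of miR-290 KO colony 2, Tdgf1 was −0.25 and Lefty1 −0.03 in miR-290 KO iPSC against ESC. Median-of-ratios scaling gave Nodal 0.10 in miR-302 KO iPSC against ESC. The cause was not tested. Depth limits the double KO level of Lefty2, which rests on about 7 to 18 reads per library.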

Other observations

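Outside the double KO, Lefty1 was higher in library 2 than in library 1 in 7 of 7 pairs of libraries of a colony or group, by 0.64 to 1.41 on the log2 scale. Lefty2 was higher in 5 of 7 of these pairs (−0.39 to 0.74), Gdf3 in 1 of 7 (−0.48 to 0.04), Tdgf1 in 5 (−1.51 to 1.10) and Nodal in 3 (−0.16 to 0.37). Of 8103 genes with a mean above 200 reads, 57 (0.703%) were higher in library 2 in all 7 pairs, Lefty1 among them. No other gene was higher by at least 0.64 in each. That limit is the lowest difference of Lefty1 itself, so Lefty1 passes it by construction. With the double KO pairs, Lefty1 was higher in library 2 in 8 of 9. In colony 2 of the double KO it had 2.98 CPM in library 1 and 2.17 CPM in library 2. The labels do not say what the library number marks. This pattern was noticed in the data, and its source was not tested.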
